A study of Mus musculus with 2 samples.

Results

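Imprinted genes are expressed mainly from the copy inherited from 1 parent. A set of 10 such genes was followed by symbol across the cell types of mouse pancreatic islets, in the raw counts of both libraries: Meg3, Rian, Kcnq1ot1, Peg3, Plagl1, Gnas, Grb10, Impact, Igf2 and Nnat. Of these 10 names, 9 were measured among the 31053 genes counted, and Rian was not analysed here. The genes were taken by name, but the set and the gene lists below were chosen with earlier results of these data known.

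Islets came from male C57/B6 mice of 16 weeks, and those of 4 mice were pooled before each library was made. The labels name no diet for the mice of the wild-type (WT) library, and the study states that mice not given a high-fat diet ate standard chow. The high-fat diet (HFD) library came from mice given a diet with 60% of its calories as fat for 10 weeks, from the age of 6 weeks. Each group was therefore 1 library of pooled animals, diet and library cannot be told apart, and no test between diets was possible. Intervals below are 95% intervals that cover counting error only. Both libraries passed through dead-cell removal and 10x Genomics 3-prime v3 chemistry, in which every captured RNA carries a molecular barcode of its own, so that copies are counted once as a unique molecular identifier (UMI). The mice were of 1 inbred strain, so UMIs of the maternal and paternal copies cannot be told apart. Whether any listed gene is imprinted in islet cells was therefore not measured.

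As background, imprinted genes lie in clusters whose parental bias is set by DNA methylation at control regions laid down in the egg or sperm. Long noncoding RNAs such as Meg3 and Kcnq1ot1 are made at several of these clusters and stay in the nucleus. Imprinted genes as a group act on growth, nutrient supply and hormone signalling. In islets, neuronatin (Nnat) is known as a small membrane protein of the endoplasmic reticulum that aids the cleavage of the insulin signal peptide, and Meg3 and Plagl1 lie in regions studied in human diabetes.

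In the GRCm38 annotation (GENCODE M21) Nnat lies on chr2:157560078-157562522 on the plus strand, within an intron of Blcap and sharing no exon bases with it. Meg3 lies on chr12:109541001-109571726, also on the plus strand, ahead of Rian in the Dlk1-Meg3 cluster. Kcnq1ot1 lies on chr7:143203458-143296549 on the minus strand, antisense to Kcnq1, and is annotated as an exon of 93092 bases. The upstream sequences of Nnat and Meg3 are shown because the diet and cell-to-cell results turn on these genes, and because CpG sites, at which imprinting marks are written, are capitals in them. Each is the 250 bases before a RefSeq start (GRCm38.p6), written from 5′ to 3′ on the plus strand, chr2:157559828-157560077 for Nnat and chr12:109540746-109540995 for Meg3, the more upstream of its 2 RefSeq starts.
Nnat: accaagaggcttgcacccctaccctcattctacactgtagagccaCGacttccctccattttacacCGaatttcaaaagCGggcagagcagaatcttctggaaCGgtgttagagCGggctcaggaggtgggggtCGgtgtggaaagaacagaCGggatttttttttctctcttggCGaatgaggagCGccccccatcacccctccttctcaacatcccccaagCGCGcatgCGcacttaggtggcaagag
Meg3: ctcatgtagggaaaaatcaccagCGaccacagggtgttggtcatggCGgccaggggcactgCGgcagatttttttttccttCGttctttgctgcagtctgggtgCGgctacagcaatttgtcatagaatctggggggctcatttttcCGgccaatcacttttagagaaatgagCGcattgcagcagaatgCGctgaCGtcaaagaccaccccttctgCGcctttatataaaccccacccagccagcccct

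The Nnat window held 12 CpG sites and the Meg3 window 10, while the window of the other Meg3 start (chr12:109545148-109545397) held 0, against a median of 6 over 32851 windows of the same length. Windows with at least 12 made up 33.5% of all, and those with at least 10 made up 37.8%. The Nnat window held the letters GCATGCGC, part of the NRF1 motif, which occurred on either strand (GCATGCGC or GCGCATGC) in 2.26% of windows. The Meg3 window held TGACGTCA, the cyclic AMP response element, also its own reverse complement and present in 1.55% of windows. Peg3 was the other of these genes with TGACGTCA. Both motifs were searched for after the 2 sequences had been read, and a match is a description of letters, not of binding. No methylation was measured.

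After filters on genes per cell, mitochondrial UMIs and doublet score, 2498 WT and 6672 HFD cells remained, with a median of 24030.5 UMIs per WT cell and 10919 per HFD cell. Cells were clustered without the hormone genes and without the imprinted genes of the lists, so the levels of these genes did not shape the clusters. Other genes described below, such as Malat1, Mafa and Slc2a2, were not left out. Clusters were named from marker lists, and "-like" marks such a name. Gcg was at 262549 in counts-per-million units (CPM, the UMIs of a gene over all UMIs of the class) in α-like cells and 625 CPM in all other cells, and Sst at 153975 against 1201 CPM for δ-like cells. There were 1731 WT and 5101 HFD β-like cells (59114910 and 70337937 UMIs), 63 and 201 α-like, 51 and 113 δ-like, 170 and 153 endothelial-like, 59 and 23 fibroblast-like, 58 and 33 ductal-like, and 40 and 45 macrophage-like cells. The WT library was deeper per cell in β-like cells, at a median of 30698 against 12122 UMIs, and the β-like cells of the libraries fell mostly into different clusters (3, 7 and 9 in WT, 0, 1, 2, 4 and 5 in HFD). The libraries shared 9 barcodes, 3 of them among kept cells.

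Meg3, a long noncoding RNA read from the maternal copy, was high in endocrine and fibroblast-like cells, with its top level in δ-like cells of both libraries. In the WT library its level was 3663 CPM in δ-like, 2332 in α-like, 841 in fibroblast-like and 829 in β-like cells. The HFD library gave 3218, 2236, 807 and 789 CPM in the same order, and 1879 CPM in its 36 γ-like cells. Fibroblast-like and β-like cells did not differ beyond counting error in either library (ratio 1.02, interval 0.90 to 1.15 in WT, and 1.02, 0.72 to 1.40 in HFD). With hormone and mitochondrial genes left out of the totals, however, the fibroblast-like level of Meg3 was 0.32 (0.28 to 0.36) and 0.35 (0.25 to 0.48) of the β-like level. The δ-like level was 1.57 times (1.47 to 1.68) the α-like level in WT and 1.44 times (1.34 to 1.54) in HFD. Endothelial-like cells held 62.8 and 80.4 CPM. The same cells held Ins2 at 5.19% (WT) and 4.63% (HFD) of its β-like level, and Meg3 at that proportion would be 43.0 and 36.5 CPM. The part of free β cell RNA in the endothelial-like level was not tested.

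Kcnq1ot1, the paternal noncoding RNA of the Cdkn1c-Kcnq1 cluster, was spread more widely than Meg3. δ-like cells were high again, at 429 CPM in WT and 441 in HFD, and β-like cells low over all UMIs, at 115 and 118 CPM. Hormone and mitochondrial genes took 69.7% (WT) and 67.7% (HFD) of β-like UMIs, and 7.08% and 5.05% of ductal-like UMIs. That lowers the β-like levels on this scale. Over all UMIs, ductal-like cells stood first in HFD at 584 CPM, 1.33 times (1.04 to 1.69) the δ-like level, but held 133 CPM in WT. Hormone and mitochondrial genes also took 35.3% of δ-like and 55.2% of γ-like UMIs in HFD. That lowers those levels beside the ductal-like one, so this order is read on the scale of all UMIs only. HFD γ-like cells held 336 CPM. α-like cells held 314 and 278 CPM, fibroblast-like cells 345 and 170 CPM, and endothelial-like cells 132 and 137 CPM. In WT, over all UMIs, the δ-like and fibroblast-like levels did not differ beyond counting error (1.24, 0.97 to 1.60), nor did the endothelial-like and β-like levels (1.15, 0.99 to 1.33). Without hormone and mitochondrial genes in the totals, the endothelial-like level was below the β-like one, at 0.38 (0.32 to 0.43) in WT and 0.40 (0.32 to 0.50) in HFD.

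Peg3 and Plagl1 encode zinc finger transcription factors read from the paternal copy, and their patterns over cell types were unlike each other. Peg3 was an endocrine gene here, with 726 CPM in δ-like, 582 in α-like and 335 in β-like cells of WT, and 752, 526 and 300 CPM in HFD. Every other class with at least 20 cells held at most 54.5 CPM of Peg3, apart from γ-like cells at 407 CPM. Plagl1 was low in β-like cells, at 2.93 CPM in WT and 3.37 in HFD. It was at 41.9 and 42.5 CPM in fibroblast-like cells and 26.4 and 22.2 CPM in δ-like cells, from 13, 2, 11 and 8 UMIs. These 2 classes could not be separated at this depth (ratio 1.59, 0.66 to 3.92 in WT).

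Among the signalling genes, Gnas encodes the α subunit of the stimulatory G protein, which passes signals from glucagon-family receptors to cyclic AMP. Gnas has more than 1 RefSeq start, with upstream windows from chr2:174284070 to chr2:174330005. UMIs were not split by start, so levels and ratios of Gnas are of the whole gene and not of 1 product. Its order ran from α-like cells, at 4989 CPM in WT and 3044 in HFD, through δ-like cells at 3122 and 2907, to β-like cells at 549 and 581 CPM. Over all UMIs, α-like exceeded δ-like cells in WT (1.598, 1.503 to 1.700) but not beyond counting error in HFD (1.05, 0.98 to 1.12). Endothelial-like cells held 2097 and 1899 CPM, above β-like cells over all UMIs. Without hormone and mitochondrial genes Gnas was not at least 1.5-fold higher in endothelial-like than in β-like cells in both libraries. Macrophage-like and β-like cells did not differ beyond counting error over all UMIs (1.13, 0.94 to 1.35 in WT), and without hormone and mitochondrial genes the ratio was 0.36 (0.30 to 0.43) in WT and 0.34 (0.25 to 0.44) in HFD.

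Grb10, an adaptor that dampens insulin and IGF-1 receptor signalling, was 90.1 and 64.8 CPM in α-like cells and 6.56 and 4.76 CPM in β-like cells. Over all UMIs, endothelial-like cells (54.4 and 54.7 CPM) and ductal-like cells (51.4 and 69.3 CPM) held levels like those of α-like cells in HFD. The α-like to endothelial-like ratio there was 1.18 (0.77 to 1.86). Hormone and mitochondrial genes took 43.2% of α-like UMIs in HFD, 6.54% of endothelial-like and 5.05% of ductal-like UMIs. That lowers the α-like level on this scale, so the likeness is of all UMIs only. Macrophage-like cells had 0 UMIs of Grb10, which allows up to 14.7 and 32.7 CPM. Impact, which restrains the amino acid sensor kinase GCN2, stood at 95.8 and 97.1 CPM in δ-like, 38.9 and 54.6 in α-like and 35.8 and 31.5 in β-like cells, and the WT α-like and β-like levels did not differ beyond counting error over all UMIs (1.09, 0.77 to 1.497). Without hormone and mitochondrial genes the WT α-like level of Impact was lower, at 0.59 (0.42 to 0.81) of the β-like level, and the HFD ratio was 0.99 (0.75 to 1.28).

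Igf2, the fetal growth factor, had 0 UMIs in all kept cells of both libraries, and 1 HFD UMI over all barcodes. For β-like cells a count of 0 allows up to 0.0507 CPM in WT and 0.0427 in HFD. However, 62.8% of its exonic bases (3596) are shared on the same strand with another indexed gene, Gm49394, and reads that lie on both cannot be assigned, so no level of Igf2 is read from this. Gm49394 itself had 1 UMI.

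Nnat was found in δ-like and β-like cells and was near or at 0 outside endocrine cells. δ-like cells held 146 CPM in WT and 119 in HFD, from 61 and 43 UMIs. β-like cells came next with 18.9 and 7.76 CPM (1120 and 546 UMIs). Over all UMIs, the δ-like level was 7.71 times (5.86 to 9.98) the β-like level in WT and 15.4 times (10.99 to 20.98) in HFD. α-like cells held 13 and 8 UMIs (13.3 and 7.40 CPM), within counting error of β-like cells on that scale. A few cells carried them: the top cell held 8 of the 13 in WT and 4 of the 8 in HFD. Hormone and mitochondrial genes took 69.7% and 67.7% of β-like UMIs, 44.2% and 43.2% of α-like and 35.8% and 35.3% of δ-like UMIs. That lowers the β-like level of Nnat most, so these comparisons hold for all UMIs only. Fibroblast-like and macrophage-like cells had 0 UMIs in both libraries, as did HFD γ-like and T-like cells. A count of 0 allows up to 9.67 CPM in WT and 63.7 in HFD fibroblast-like cells. Ductal-like cells had 4 UMIs in WT (4.04 CPM, 0.21 of the β-like level, 0.06 to 0.55) and 0 in HFD, which allows up to 14.9 CPM. Endothelial-like cells had 2 UMIs in WT (1.39 CPM) and 0 in HFD, which allows up to 5.13 CPM.

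**Figure D1:**
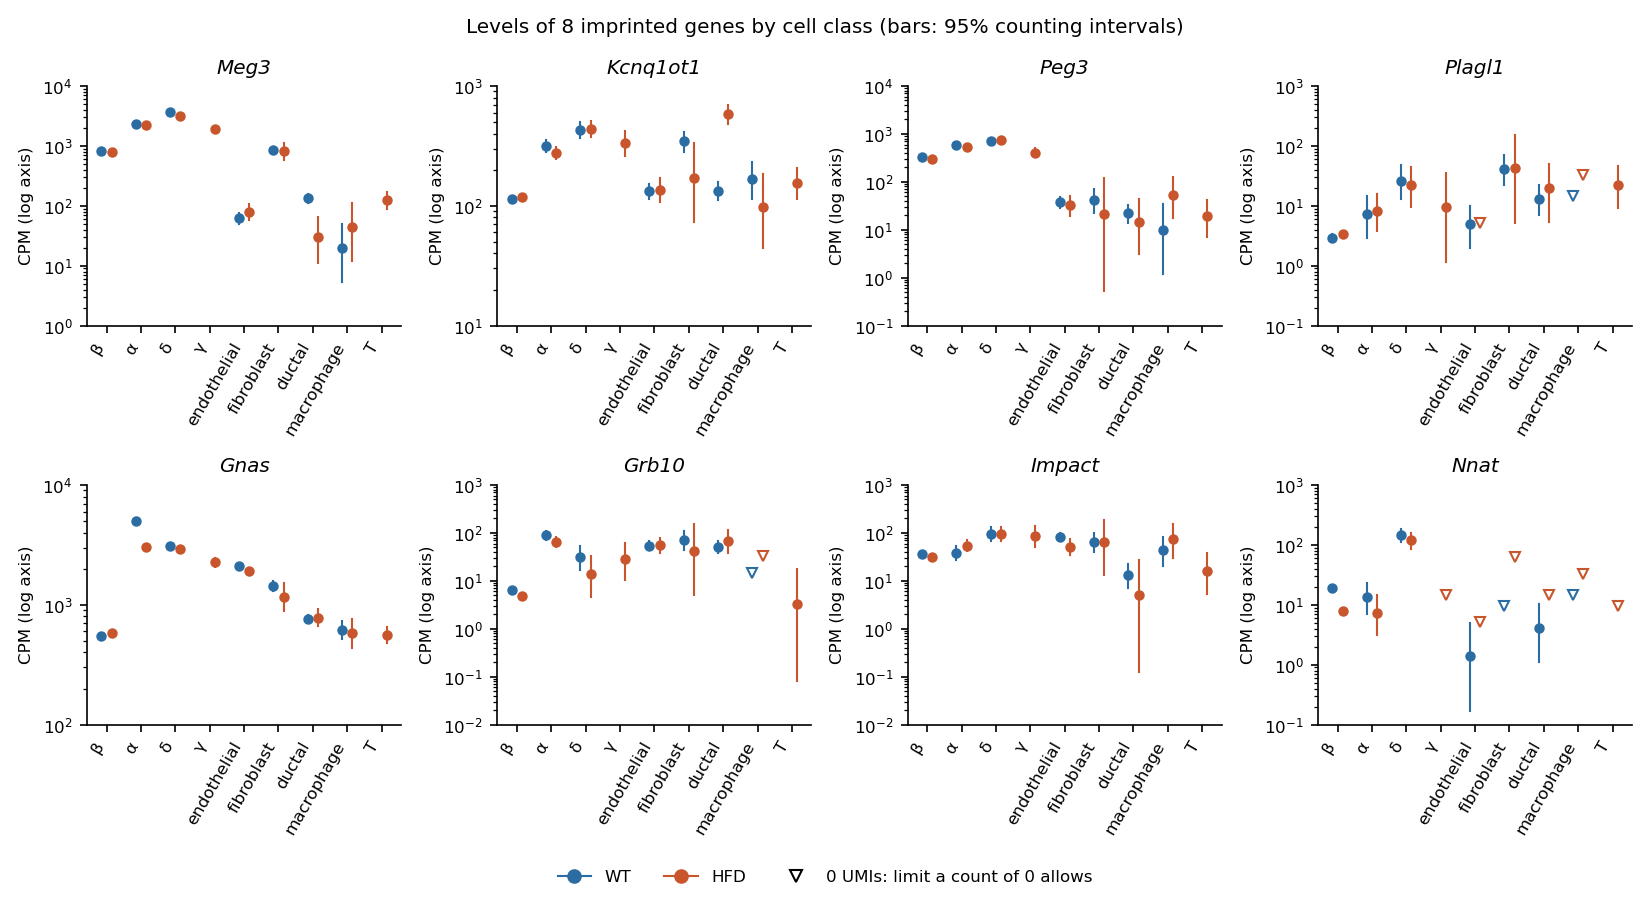
Levels of 8 imprinted genes in CPM (log axis) by cell class, with WT in blue and HFD in orange. Points are sums over the cells of a class with at least 20 cells in that library, bars are 95% counting intervals, and open triangles mark the limit that a count of 0 allows. δ-like cells lie above β-like cells in all panels, Meg3, Peg3 and Nnat are low or at 0 in endothelial-like cells, and Gnas is at its highest in α-like cells.

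Taking all 9 measured genes, 7 were at least 1.5-fold higher in δ-like than in β-like cells in both libraries (Meg3, Peg3, Plagl1, Gnas, Nnat, Impact and Kcnq1ot1), and 5 in α-like cells (Meg3, Peg3, Gnas, Grb10 and Kcnq1ot1). By the same rule 26.7% of 11256 genes were higher in δ-like cells and 24.4% of 11286 in α-like cells, among genes with at least 100 UMIs over both classes. These shares include genes used for clustering. The median gene stood at 1.93 times its β-like level in δ-like cells of WT and 1.84 times in HFD, and at 1.57 and 1.42 times in α-like cells. Hormone and mitochondrial genes took 69.7% of UMIs in WT β-like cells and 67.7% in HFD, which lowers the share left to every other gene. With those genes left out of the total, the counts were 5 of 9 in δ-like cells (Meg3, Plagl1, Gnas, Nnat and Kcnq1ot1) and 3 of 9 in α-like cells (Meg3, Gnas and Grb10), where 4.73% and 4.17% of all genes were higher. On this scale the median gene stood at 0.91 and 0.92 of its β-like level in δ-like cells, and at 0.85 and 0.81 in α-like cells. Peg3 is an example of the difference: its δ-like to β-like ratio was 2.16 in WT and 2.51 in HFD over all UMIs, and 1.02 and 1.25 over the remaining genes. Over the remaining genes Meg3 was 2.08 (1.98 to 2.19) and 2.03 (1.92 to 2.16) times higher in δ-like cells.

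Between diets, Nnat was the only one of the 8 genes with at least 20 UMIs in β-like cells that passed 1.5-fold with an interval not holding 1. That is 1 lower and 0 higher, where 3.98% of the 11220 genes with at least 100 UMIs were lower by the same rule and 2.78% were higher. Nnat stood at 18.9 CPM in WT and 7.76 in HFD β-like cells, an HFD to WT ratio of 0.41 (0.37 to 0.45). The median log2 ratio was -0.12 over the 8 genes and -0.01 over all genes tested.

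The remaining genes differed by far less in β-like cells. Meg3 was 829 CPM in WT and 789 in HFD (0.95, 0.94 to 0.96), and Kcnq1ot1 115 and 118 CPM (1.02, 0.99 to 1.06). Peg3 stood at 335 and 300 CPM (0.89, 0.88 to 0.91), and Gnas at 549 and 581 CPM (1.06, 1.04 to 1.07). Intervals this narrow reflect 15059 UMIs or more per gene and do not include variation between mice. Impact was 35.8 and 31.5 CPM (0.88, 0.83 to 0.93), and Grb10 6.56 and 4.76 CPM (0.73, 0.63 to 0.84). Plagl1 had 173 and 237 UMIs and a ratio whose interval held 1 (1.15, 0.94 to 1.41).

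**Figure D2:**
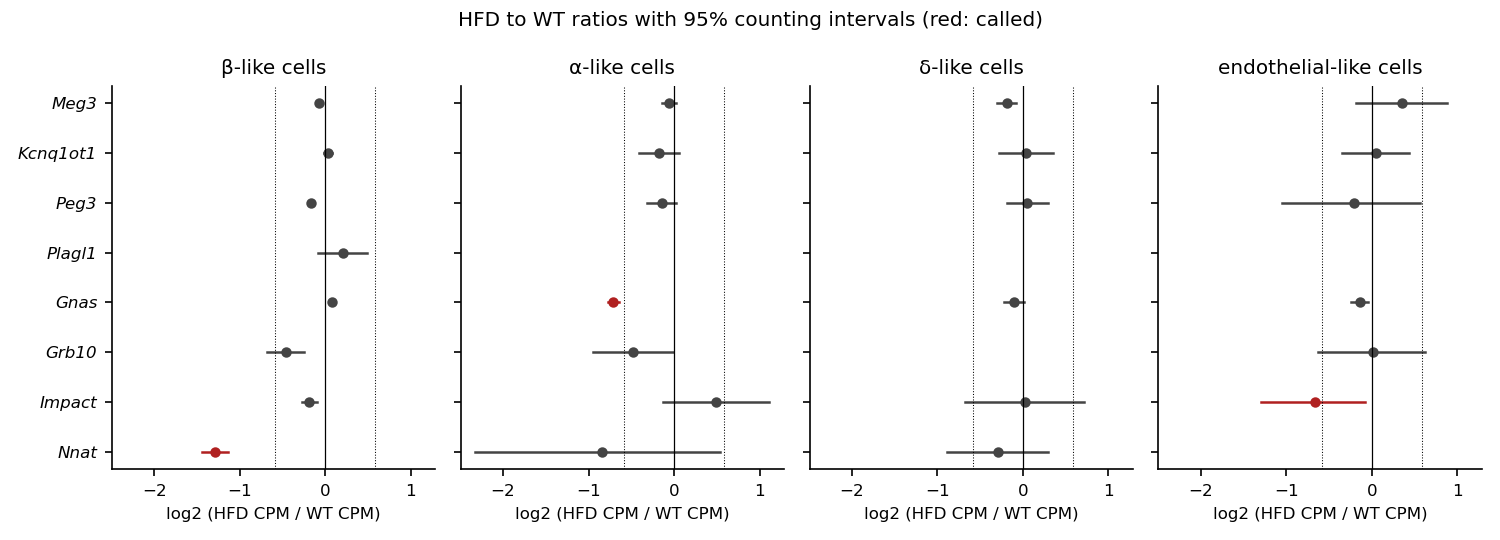
HFD to WT ratio of each imprinted gene by cell class, on a log2 axis, with 95% counting intervals; only classes with at least 20 cells in each library and genes with at least 20 UMIs are drawn. Nnat in β-like cells lies at -1.29, below the other 7 genes of that class.

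The lower Nnat level in HFD was seen within cells of like depth. Among β-like cells with 10000 to 20000 UMIs, Nnat was 30.0 CPM in 271 WT cells and 8.44 CPM in 2466 HFD cells (0.28, 0.23 to 0.35). Among those with 20000 to 40000 UMIs it was 19.2 CPM in 824 WT cells and 5.71 CPM in 875 HFD cells (0.30, 0.24 to 0.36). The WT bands below 10000 UMIs held 4 Nnat UMIs each, and their intervals held 1. By cluster, the 4 clusters that held at least 40 WT β-like cells gave 17.0 to 20.2 CPM in WT, and the 5 main HFD clusters 6.0 to 9.9 CPM. Cluster 4 held both, 48 WT cells at 20.2 CPM (11.5 to 32.8) and 780 HFD cells at 9.9 CPM (7.7 to 12.5).

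The genes that hardly differed over all β-like cells also varied with depth. Meg3 fell with UMIs per cell in HFD, from 974 CPM at 5000 to 10000 UMIs to 809 and 644 CPM in the next bands, and in WT from 1117 CPM at 10000 to 20000 UMIs to 913 and 718 CPM above. The shallowest WT cells did not follow this order, with 733 CPM (598 to 889) in 47 cells of up to 5000 UMIs and 1038 CPM in 38 cells of 5000 to 10000. Up to 5000 UMIs the 142 HFD cells held 1283 CPM, so that the HFD to WT ratio of Meg3 was 1.75 (1.42 to 2.17), and at 5000 to 10000 UMIs it was 0.94 (0.84 to 1.06). Within the 10000 to 20000 and 20000 to 40000 bands the ratio was 0.72 (0.70 to 0.75) and 0.71 (0.69 to 0.72), against 0.95 over all β-like cells. Malat1, an abundant nuclear RNA, moved in the same way: it was 3728 CPM in WT and 4527 in HFD over all β-like cells, with ratios of 0.72 and 0.64 within those bands and of 1.46 up to 5000 UMIs (5136 CPM in WT and 7484 in HFD). Peg3 gave 0.61 and 0.77 within the bands from 10000 to 40000 UMIs, Kcnq1ot1 0.60 and 0.80, Grb10 0.64 and 0.58, and Gnas 0.98 and 1.04. Since the libraries differed in depth per cell, a band need not hold the same kind of cell in both, and the part of depth in these ratios was not tested.

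**Figure D3:**
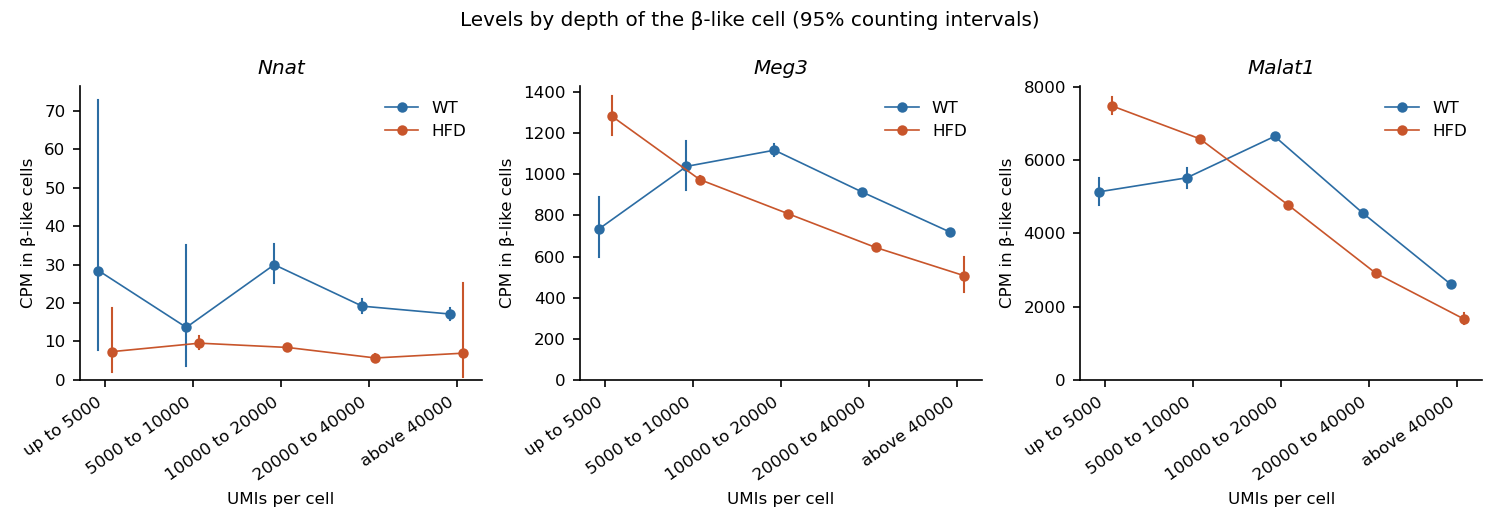
Levels of Nnat, Meg3 and Malat1 in β-like cells by band of UMIs per cell, in CPM, for WT (blue) and HFD (orange), with 95% counting intervals. From 10000 to 40000 UMIs the WT points of Nnat lie at 19.2 to 30.0 CPM and the HFD points at 5.71 to 8.44 CPM, while Meg3 and Malat1 fall with depth in HFD throughout.

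The summed δ and γ cell markers were lower in HFD β-like cells, as Nnat was. Sst was 543 CPM in WT and 260 in HFD β-like cells. The summed level of the 5 δ markers was 577 and 279 CPM, mostly Sst, with none at 0. If that Sst came with other δ RNA in the proportions of δ-like cells, it would bring 0.532 CPM of Nnat in WT and 0.194 CPM in HFD. In the 1213 WT and 3925 HFD β-like cells without an Sst UMI, Nnat was 19.3 and 7.72 CPM (0.40, 0.35 to 0.45), beside 0.41 in all β-like cells. The other summed marker lists in β-like cells were 1004 and 1948 CPM for α cells (mostly Ttr), 1242 and 540 for γ cells, and 148 and 435 for acinar cells. Ductal markers were at 366 and 403 CPM, macrophage markers at 43.9 and 53.0, B cell markers at 12.8 and 4.61, and erythroid markers at 1.13 and 34.4. Endothelial, fibroblast and T cell markers were at most 4.39 CPM. Their part in the Nnat difference was not tested.

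Nnat was unevenly spread over β-like cells. With each cell thinned to 5000 UMIs, 130 of 1684 WT cells (7.72%, 6.49 to 9.10%) and 165 of 4959 HFD cells (3.33%, 2.85 to 3.87%) had a Nnat UMI. The thinned Nnat count had a variance 1.83 times its mean in WT and 1.55 times in HFD, where pure counting error gives 1, and reached 9 UMIs in a WT cell and 6 in an HFD cell. Counting error alone would have put a UMI in 9.60% of WT and 4.05% of HFD cells at these means. The squared coefficient of variation beyond counting error was 8.22 for Nnat in WT, and 99.7% of 5599 genes had a lower value. That measure gives weight to high counts: 1 WT cell held 9 thinned UMIs, and the next highest count was 4, in 3 cells. Its value without the top cell was not computed. HFD Nnat, at a mean of 0.041, was below the minimum mean of 0.05 set for it. In the unthinned counts 57 WT cells with at least 5 UMIs held 45.2% of all WT Nnat UMIs, and 10 HFD cells held 10.8%. No cell decided the total: the highest held 32 UMIs, 2.86% of the WT sum, and leaving out the top cell of each library left the ratio at 0.41.

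To set these shares against background, cells were also thinned to 2000 UMIs. A Nnat UMI was then found in 3.19% of WT and 1.33% of HFD β-like cells, against 28.6% of WT and 13.5% of HFD δ-like cells. Endothelial-like cells, whose median depths were 6522 and 3271 UMIs, gave 2 of 158 in WT (1.27%, 0.15 to 4.50%) and 0 of 112 in HFD, which allows up to 3.24%. Both β-like shares lie within what the endothelial-like counts allow, so at that depth neither can be set apart from the background, and the comparison rests on the CPM values above.

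Meg3 was detected in most β-like cells. At 2000 UMIs per cell it was found in 78.2% of WT and 78.3% of HFD β-like cells, against 10 of 158 (6.33%) and 11 of 112 (9.82%) endothelial-like cells, at the median depths given above. After thinning to 5000 UMIs it was found in 96.4% of WT and 96.8% of HFD β-like cells, with a median of 4 UMIs in both libraries and the middle 80% of cells between 1 and 8. Its variance was 1.94 times the mean in WT and 1.64 times in HFD. The squared coefficient of variation beyond counting error, 0.214 and 0.153, was above the medians over genes of 0.08 and 0.07, and 67.5% and 66.7% of genes lay below it. Kcnq1ot1 lay higher on this measure than 89.8% of genes in WT and 91.6% in HFD, and Gnas near the middle, at 49.6% and 58.7%.

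**Figure D4:**
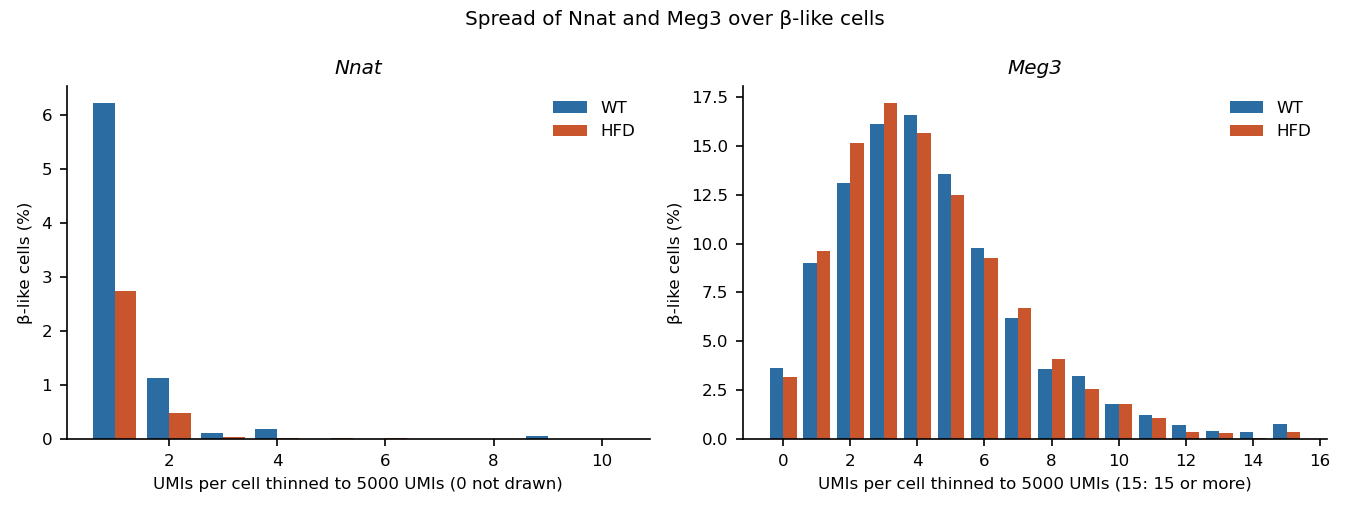
Share of β-like cells by the number of Nnat UMIs and of Meg3 UMIs per cell after thinning each cell to 5000 UMIs, for 1684 WT and 4959 HFD cells. Nnat is absent from over 90% of cells with a thin tail that is heavier in WT, and Meg3 peaks at 3 to 4 UMIs in both libraries.

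Over single β-like cells, the thinned counts of Meg3 went most with those of Malat1, at a Pearson r of 0.39 in WT and 0.32 in HFD, and next with mt-Co3 at 0.22 and 0.26. It went against UMIs per cell before thinning (-0.26 and -0.24) and Ins2 (-0.27 and -0.22). Among the other imprinted genes, Kcnq1ot1 came closest to Meg3 in WT, at 0.21. These points are cells of 1 library each and share its depth and free RNA, so the values are descriptions. Nnat went with no gene beyond 0.12 in WT or 0.08 in HFD, which in counts this sparse is no finding. WT cells with a Nnat UMI held Sst at 823 CPM against 387 in cells without, and HFD cells at 295 against 189 CPM. Mafa, a maturity factor, was 351 against 319 CPM in WT and 175 against 177 in HFD. Of the 5 other genes of the set with a mean of at least 0.05 thinned UMIs per cell, 2 were higher in the WT cells with Nnat, Meg3 (962 against 877 CPM) and Peg3 (374 against 369), and 3 were lower, Gnas (528 against 550), Impact (24.6 against 38.5) and Kcnq1ot1 (123 against 133).

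Levels were compared over the 16 sums of a class in a library, among genes with at least 50 CPM in 1 or more of the sums. A gene could pass that minimum through 1 class alone. Most like Nnat were Spock1 (r of log2 levels 0.970), Kctd8 (0.960), Lingo1 (0.959), Rab3b (0.957) and Fam159b (0.956). For Meg3 they were Spata7 (0.981), Ostc (0.950), Ank2 (0.945), Hmgn3 (0.936) and Snrpn (0.935). Snrpn is itself imprinted, and shares exon bases on the same strand with Snurf and Gm38393, so its counts are uncertain. Among the measured genes Peg3 was nearest to both, at 0.860 to Meg3 and 0.723 to Nnat. The sums of 1 library share depth and free RNA.

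In the 6 other classes that could be compared, 31 pairs of a gene and a class had at least 20 UMIs, of which 3 were lower in HFD, 1 was higher and 27 were neither. In δ-like cells 0 of 6 genes passed, where 4.55% of 835 genes were lower and 5.03% higher. Nnat there was 146 CPM in WT and 119 in HFD (0.82, 0.54 to 1.23), beside 0.41 in β-like cells, and the difference between the 2 ratios was not tested. Fibroblast-like cells gave 0 of 5 genes (8.26% of all genes lower and 8.26% higher) and macrophage-like cells 0 of 2 (11.6% and 5.34%).

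In α-like cells Gnas was the gene that passed, 1 lower of 7, where 6.17% of 1960 genes were lower and 1.94% higher. It had 4871 UMIs in WT and 3291 in HFD, 4989 and 3044 CPM, a ratio of 0.61 (0.58 to 0.64). The ratio was on the same side in each of the 3 α-like clusters, at 0.64 (0.59 to 0.69), 0.61 (0.54 to 0.69) and 0.53 (0.46 to 0.61), of which the first 2 held most HFD cells and the last most WT cells. The top cell held 4.52% of the WT UMIs, and the ratio was 0.62 without the top cells. α-like cells also held β RNA unequally, with Ins2 at 76542 CPM in WT and 29171 in HFD, and median depths of 11563 and 4632 UMIs. The part of these in the Gnas value was not tested. Meg3 in the same cells was 2332 and 2236 CPM.

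In endothelial-like cells Impact was 81.6 CPM in WT and 51.3 in HFD (117 and 30 UMIs, 0.63, 0.41 to 0.95), 1 lower of 6 where 6.39% of 3333 genes were lower and 5.76% higher. By cluster the Impact ratio was 0.51 (0.28 to 0.93) in the 22 WT and 67 HFD cells of 1 cluster and 0.98 (0.11 to 3.80) in the 80 and 16 of another. It was 0.51 (0.06 to 1.96) in the 49 WT and 12 HFD cells of a further cluster. In the last, Impact was 145 CPM in 19 WT cells and 29.2 in 58 HFD cells, from 15 and 4 UMIs, too few for a ratio here. In ductal-like cells 1 of 5 genes was lower and 1 higher, where 8.89% of 1889 genes were lower and 10.6% higher. Kcnq1ot1 there was 133 CPM in WT and 584 in HFD (132 and 118 UMIs, 4.39, 3.39 to 5.67). It was found in 33 of 58 WT and 23 of 33 HFD cells, with a ratio of 4.30 without the top cell of each library. Cells with at least 5 of its UMIs, 6 in WT and 8 in HFD, held 51.5% and 75.4% of them. Median depth was 10159 UMIs in WT and 4825 in HFD ductal-like cells, and Malat1 was at 9718 and 14583 CPM. The part of these in the Kcnq1ot1 value was not tested. Meg3 was 135 and 29.7 CPM (134 and 6 UMIs, 0.22, 0.08 to 0.49), but 4 WT cells held 92.5% of its WT UMIs and 1 of them 37.3%. Without the top cell of each library that ratio was 0.12.

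Other imprinted genes were then set beside these, from a list of 55 of which 53 were measured and 35 had at least 20 UMIs in β-like cells. By the rule above 7 were lower in HFD and 0 higher, where 5.16% of the 13245 genes with at least 20 UMIs were lower and 3.42% higher. Their median log2 ratio was -0.21, against -0.02 for those 13245 genes. Among the 11220 genes with at least 100 UMIs the lower share was 3.98%, so it depends on level, and a share among genes of like level was not computed. The 7 were genes of low level. Zim1, a zinc finger gene beside Peg3, had the most UMIs among them, 5.48 CPM in WT and 3.36 in HFD (324 and 236 UMIs), followed by Asb4 at 2.11 and 1.09 CPM. Cdkn1c, a cell cycle inhibitor in the Kcnq1ot1 cluster, and Dlk1, a Notch ligand family member in the Meg3 cluster, had 43 WT and 16 HFD UMIs each (0.73 and 0.23 CPM). Mest stood at 0.71 and 0.27 CPM, Gab1 at 0.61 and 0.34 CPM, and Dcn at 0.73 and 0.10 CPM. Dcn is also a marker of fibroblasts, and the summed fibroblast markers in β-like cells were 1.73 CPM in WT and 0.213 in HFD.

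Levels of some of these genes were far higher in other classes. Dlk1 was 76.7 CPM in WT and 11.1 in HFD δ-like cells, from 32 and 4 UMIs, and Mest 113 and 91.5 CPM. Cdkn1c was 425 and 955 CPM in fibroblast-like cells. The 5 genes of the list with the most UMIs in β-like cells were Ddc, the enzyme that makes dopamine and serotonin (136 CPM in WT and 165 in HFD), H13, a signal peptide peptidase (99.9 and 138), Tssc4 (74.1 and 71.9), Ube3a (65.6 and 58.0) and Slc38a4 (50.9 and 50.3). None of these 5 passed 1.5-fold. Mirg, which lies in the same cluster as Meg3 and is read in the same direction, was 15.6 and 20.1 CPM (1.28, 1.18 to 1.40) where Meg3 was 0.95.

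**Figure D5:**
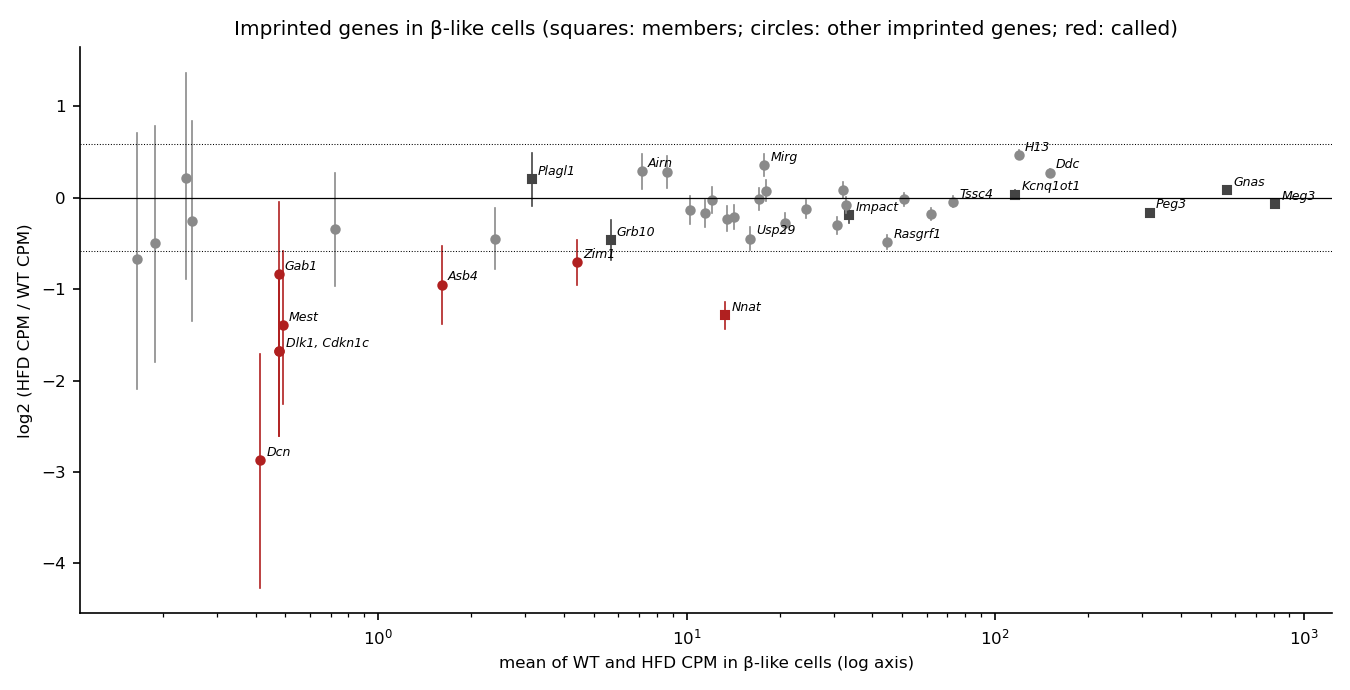
HFD to WT log2 ratio in β-like cells against mean level in CPM (log axis) for the imprinted genes with at least 20 UMIs. Squares are the genes described first, circles the other imprinted genes, bars 95% counting intervals, and red marks those past 1.5-fold (dotted lines) with an interval not holding 1. The red points lie below 0, and all but Nnat are under 6 CPM.

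Genes of the pathways in which these proteins act were read in β-like cells from lists, again with at least 20 UMIs and against the same 5.16% lower and 3.42% higher of all genes. Of 12 signal peptidase and translocon genes, the machinery with which neuronatin is associated, 2 were higher and 0 lower, with a median log2 ratio of 0.30. These were Sec11c, a catalytic subunit of the signal peptidase (278 CPM in WT and 428 in HFD), and Ssr4, of the translocon-associated complex (630 and 979 CPM). Of 13 Gs signalling genes 0 passed, with Gnai2, an inhibitory subunit, just inside at 213 and 144 CPM (0.67, 0.66 to 0.69). Of 12 IGF and insulin signalling genes 3 were lower: Irs2, the main insulin receptor substrate of β cells (70.9 and 36.9 CPM), Igfbp5 (1.98 and 0.33) and Igf2bp2 (1.27 and 0.41). Of the 5 genes of the GCN2 branch 0 passed.

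Of 11 β cell maturation genes, 3 were lower and 0 higher (5.16% and 3.42% of all genes), with a median log2 ratio of -0.45. These were Mafa (315 CPM in WT and 168 in HFD), the glucose transporter gene Slc2a2 (198 and 112) and the cation channel gene Trpm5 (128 and 79.2). Maturation genes were not left out of the clustering, and Mafa and Slc2a2 were among the markers that named β-like clusters. Among 8 neighbours of the followed genes with enough UMIs, 3 were lower, Dlk1, Cdkn1c and Zim1, which the list of imprinted genes also holds. Blcap, in whose intron Nnat lies, was 22.9 and 18.9 CPM (0.82, 0.76 to 0.89), beside 0.41 for Nnat.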

How the data were processed

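Islets of male mice were profiled in 1 WT and 1 HFD library. The authors deposited UMI counts of each gene in each barcode, not normalized, from Cell Ranger (mm10 index, v3.0.2 in the submitters' processing notes). Depth was 73843674 UMIs over 3895 WT barcodes and 94375138 UMIs over 8951 HFD barcodes. Barcodes were kept with at least 500 genes and at most 20% mitochondrial UMIs, with no UMI maximum. The automatic Scrublet threshold called 12 and 0 doublets, so the highest scores were left out instead, 121 WT (3.11%) and 641 HFD (7.16%). Genes in at least 15 cells were scaled to 10000 UMIs per cell, and 2000 variable genes without hormone, Cck or imprinted genes, 50 principal components and 15 neighbours fed Leiden clustering at resolution 1 (scanpy v1.11.5, igraph v0.11.9). Clusters were named from marker lists. Left unnamed were 6 clusters with 3 or more detected markers, 3 whose leading genes belonged to another class and 3 of low UMIs with no own marker leading.

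Counts were summed per class and library and divided by total UMIs (CPM). Intervals at 95% were exact Poisson for levels, Clopper-Pearson for shares and conditional binomial for ratios (scipy v1.17.1). UMIs of 1 library are not animals, so intervals and limits of a count of 0 (3 counts) cover counting error only, and no test between groups was made. A ratio was called at 1.5-fold with an interval not holding 1. The ratio and interval code was tested on simulated data. The members and gene lists were chosen with earlier results of these data known. Named genes were all members, the called and the 5 most counted other imprinted genes, the 5 nearest by Pearson r of log2(CPM + 10), and list genes with the largest differences or described by role. Rian was not analysed here, and the list of immature β cell genes is not reported here. Alternatives changed the cell filters, doublet step, resolution, scaling, depth band, weighting, fold and thinning, and the closing section gives their effect.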

Additional observations from a re-analysis of the deposited data

Results flagged for a closer look

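The Gnas difference between diets was unlike in 2 cell classes. In α-like cells the HFD to WT ratio was 0.61 (0.58 to 0.64), and in β-like cells it was 1.06 (1.04 to 1.07), log2 values of -0.71 and 0.08. The α-like value lay from -0.92 to -0.66 in all 9 alternatives that gave one. The β-like value changed side with the scaling: it was -0.01 without hormone and mitochondrial genes, the 1 of 14 alternatives below 0. With 1 library per diet the difference between these ratios was not tested. No outlier check was possible, since each group is 1 library.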

How the results depend on the processing

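No paired analysis was possible because each group is 1 library. Nnat stayed lower in HFD β-like cells and past the fold in all 14 alternatives, with log2 ratios from -1.96 (at most 15000 UMIs per cell, which left 185 WT β-like cells) to -1.14 (resolution 2). The members lower in β-like cells were 2, Nnat and Grb10, at most 15000 UMIs per cell and in cells with 10000 to 30000 UMIs, where Grb10 was at -0.998 and -0.66. At most 15000 UMIs also gave 2 pairs higher in other classes and 1 other imprinted gene higher, as did resolution 0.5 (1 higher), and left the Impact ratio in endothelial-like cells at -0.62 without its call. Without hormone and mitochondrial genes 3 members were higher in α-like than β-like cells. With each cell weighted equally, by fold alone, 8 pairs were lower and 3 higher. The share of β-like cells with a Nnat UMI was 3.19% in WT and 1.33% in HFD when thinned to 2000 UMIs, and 26.6% and 7.76% unthinned, as fewer or more UMIs per cell imply. It was 3.92% in HFD at resolution 2, and 3.91% with unnamed clusters nearest the β markers added, an alternative chosen after seeing the data, where the cause was not tested. The variance of Nnat and of Meg3 counts over their means in WT rose to 3.44 and 3.71 at most 15000 UMIs per cell, where the cause was not tested, and to 6.11 and 8.82 unthinned, with Meg3 in HFD at 3.22. The share of all genes lower in β-like cells ran from 0.989% (2-fold) to 9.60% (10000 to 30000 UMIs), and the median log2 of all genes moved to -0.11 (at most 15000 UMIs, or without hormone genes) and -0.17 (10000 to 30000 UMIs). Kcnq1ot1 in β-like cells was below 0 in 7 alternatives and above in 7. No other class had 20 cells per library within 10000 to 30000 UMIs, and δ-like cells gave no value at 10% mitochondrial UMIs. The naming of β-like clusters moved with settings: HFD held 5101 such cells, and 3353 at resolution 0.5. Counts under 20 UMIs in the smaller classes cannot show differences of the sizes described.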

Other observations

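Clusters that could not be named, and barcodes left out by the filters, also held these genes. Cluster 8, with β genes and Sst, Rbp4, Pyy and Ppy among its leading genes (110 WT and 221 HFD cells), had Nnat at 39.0 CPM in WT and 24.0 in HFD (0.62, 0.45 to 0.84), and Grb10 at 19.6 and 7.89 CPM. Both lie above the β-like levels. The 1295 WT and 1654 HFD barcodes with over 20% mitochondrial UMIs or under 500 genes held Meg3 at 4656 and 3639 CPM, Peg3 at 1390 and 898 CPM and Kcnq1ot1 at 640 and 710 CPM, all above β-like cells. Gnas there was 214 and 241 CPM, below them. Cluster 12, of low UMIs with Malat1 leading, held Meg3 at 15671 CPM in its 76 WT cells and 2121 CPM in its 47 HFD cells, where Malat1 was 161222 and 27344 CPM and Ins2 51787 and 416549 CPM. H19, imprinted beside Igf2, had 35 UMIs in kept WT cells, all 35 in the 59 fibroblast-like cells, and 0 in kept HFD cells.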
